A study of Mus musculus with 4 samples.

Results

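The mitochondrial ribosomal protein genes were taken as the genes of the array whose symbol starts with Mrpl or Mrps followed by a digit, and 76 of the 18194 genes measured belonged to them. By symbol, 47 code for proteins of the large subunit (Mrpl) and 29 for proteins of the small subunit (Mrps). Each gene was read from its brightest probe set, by the mean of the 4 arrays whatever their day, and probe sets carrying several gene symbols were left out. For that reason Mrpl30 and Mrpl53, which were present only on such shared probe sets, were not analysed here. All 76 genes lay above the median level of the 18194 genes, and no filter on low values was applied.

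The series compared 2 groups of mouse cells with no genetic change or drug named in the labels. The day 0 group held embryonic stem cells (2 samples), and the day 3 group held epiblast-like tissue formed by those cells in SFEBq, a floating aggregate culture without serum (2 samples). Cell line, strain, culture dish and medium of the day 0 cells are not named in the labels, so differences of medium and of cell state cannot be told apart. Nothing stated that samples of a day came from separate cultures, so the p-values rest on a spread that may be technical only.

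Mitochondria keep a ribosome of their own, descended from that of their bacterial ancestor, which translates the few respiratory chain and ATP synthase subunits still encoded in mitochondrial DNA. Its RNAs come from the mitochondrial genome, whereas its proteins are encoded in the nucleus, made in the cytoplasm and imported. The small subunit binds and decodes the messenger RNA, and the large subunit joins the amino acids and guides the nascent chain to the inner membrane. Some of the proteins have counterparts in the bacterial ribosome, and others have none there. Naive stem cells are known to respire more than primed epiblast cells, which rely more on glycolysis.

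Most of these genes were a little lower in epiblast-like tissue than in stem cells. With limma and Benjamini-Hochberg adjustment over all 18194 genes (adjusted p under 0.05), 40 of 76 fell, 7 rose and 29 were not called, whereas 21.4% of all genes were called lower and 20.9% higher. An unmoderated test per gene borrows no variance from other genes. It called 14 of the members lower and 0 higher (37 and 6 at an unadjusted p under 0.05). The calls that this test ended include Mrps31 (adjusted p = 0.0551 in the unmoderated test), Mrps18b and all 7 rises. The shares of all genes called by the unmoderated test are not given here, so its counts have no background beside them. The median log2 difference in the deposited values, day 3 minus day 0, was -0.22 over the members and 0.01 over all genes. The falls were small, from -0.20 to -1.003 with a median of -0.41 among the 40 called, and 29 of these were under 0.5 in size. Of the 29 genes not called, 21 had a difference below 0 and 8 above 0, within -0.22 to 0.16.

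The members are bright, and bright genes were called more often. Tested only among the 9097 genes above the median level, 43 of 76 members (56.6%) were called lower and 7 (9.21%) higher, against 35.5% lower and 30.5% higher for all genes in that test. Within the members' own range of mean levels, 8.77 to 12.44 on the log2 scale, lay 5118 genes with a median difference of -0.06, and 37.1% of them were lower and 28.6% higher in the fit over all genes. A difference below 0 was found for 80.3% of the members and 55.8% of those 5118 genes. In contrast, the share of genes whose day 0 and day 3 arrays did not overlap was near that background, at 66 of 76 members (86.8%) and 85.4% of the 5118.

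**Figure D1:**
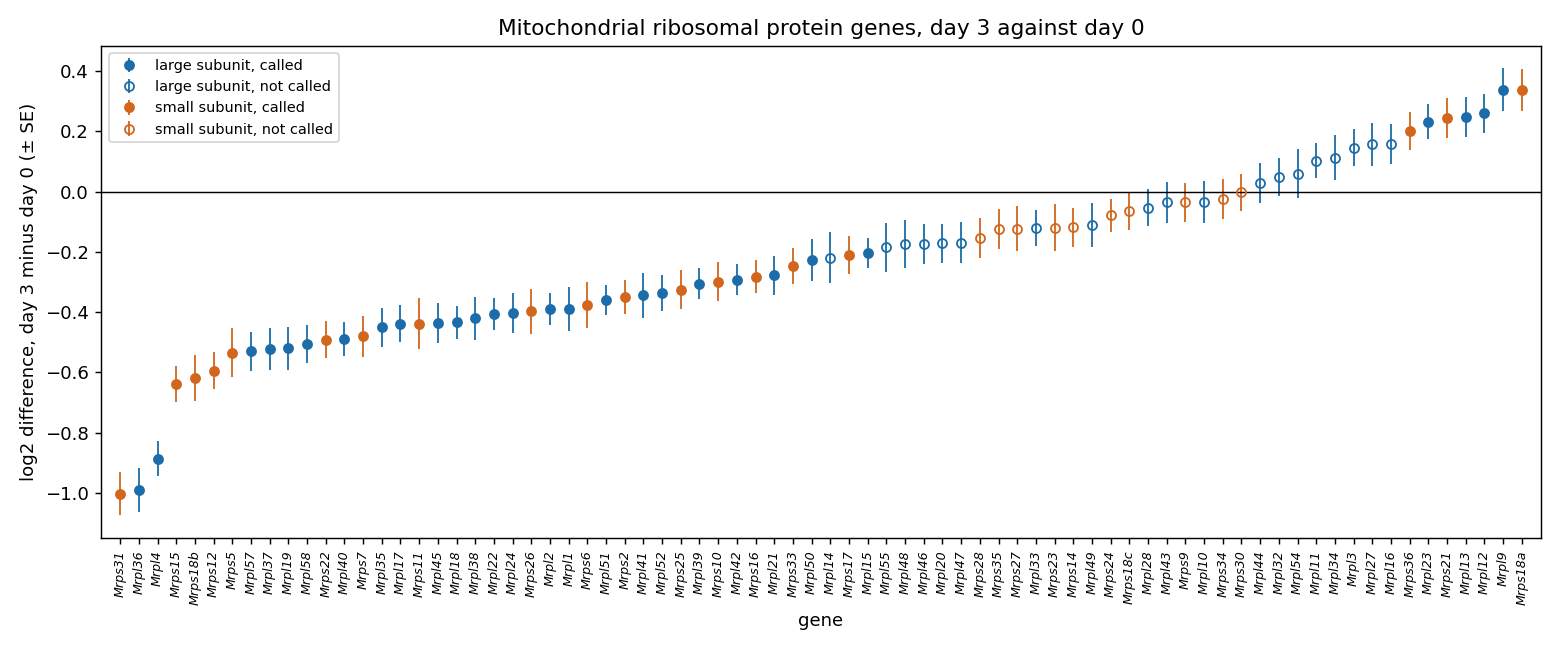
Log2 difference between day 3 and day 0 for each of the 76 mitochondrial ribosomal protein genes, in order of size, with the standard error of the fit as bars. Filled points passed an adjusted p under 0.05 and colours give the subunit by symbol. Both colours run along the whole order, with Mrps31, Mrpl36 and Mrpl4 apart at the low end and 7 called rises at the high end.

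The same direction was seen on each day 3 array. The mean log2 level over the 76 members was 10.79 and 10.82 on the day 0 arrays and 10.54 and 10.61 on the day 3 arrays. Both day 3 means lay below both day 0 means. The duplicates of a day differed less, with a median gap per gene of 0.048 at day 0 and 0.069 at day 3 and a widest gap of 0.22 (Mrps11 at day 3). At day 3, however, the array of replicate 2 was the higher one for 66 of 76 members (86.8%), against 56.6% of the 5118 genes in the same range of levels. The median gap of the members between these arrays was 0.064, about as large in the large subunit (0.066) as in the small (0.063). The part of this shift in the results was not tested beyond leaving out each array, which gave a median difference of -0.27 to -0.21.

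**Figure D2:**
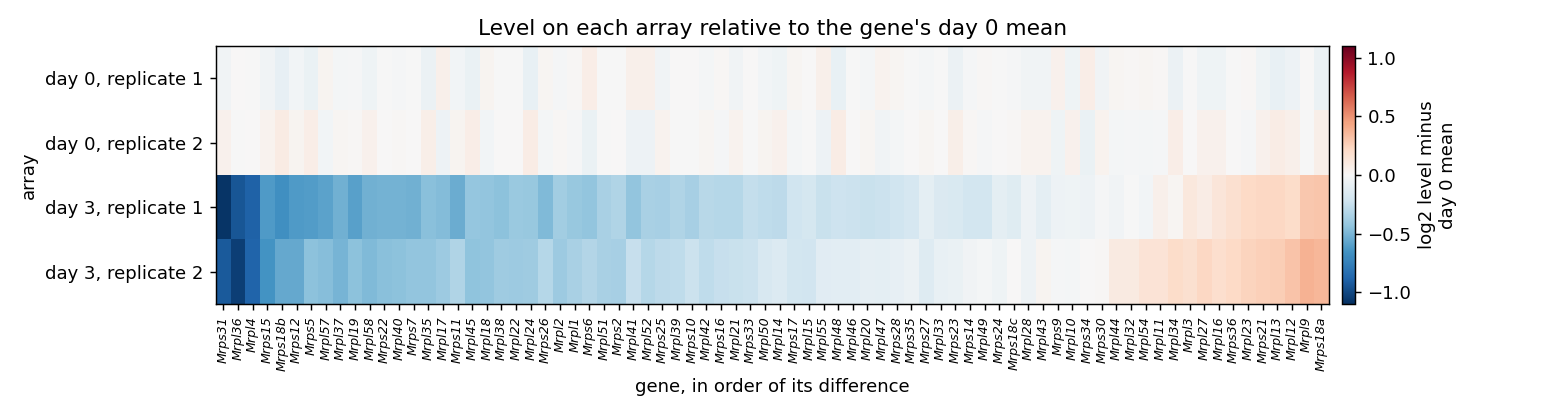
Log2 level of each gene on each of the 4 arrays minus the gene's mean at day 0, with genes in the order of their difference. The day 0 rows are pale, both day 3 rows are blue over most genes, and day 3 replicate 2 is slightly paler than replicate 1.

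The promoters of the outermost members are shown because the family is classically linked to the transcription factors NRF1, the ETS factor GABP, YY1 and Myc. Each sequence runs from 250 bases before to 50 bases after the annotated start, from RefSeq on build GRCm38.p6, in the direction of the gene. Capitals mark matches on either strand to GCATGCGC (core of the NRF1 motif), CCGGAAG (ETS), AAGATGGC (YY1) or CACGTG (E-box, the motif of Myc). Mrps31 (chr8:22411090-22411389, plus strand) and Mrpl36 (chr13:73330759-73331058, plus strand) had the 2 largest falls in the deposited values, and Mrpl9 (chr3:94443086-94443385, plus strand) and Mrps18a (chr17:46110754-46111053, plus strand) the largest rises.
Mrps31: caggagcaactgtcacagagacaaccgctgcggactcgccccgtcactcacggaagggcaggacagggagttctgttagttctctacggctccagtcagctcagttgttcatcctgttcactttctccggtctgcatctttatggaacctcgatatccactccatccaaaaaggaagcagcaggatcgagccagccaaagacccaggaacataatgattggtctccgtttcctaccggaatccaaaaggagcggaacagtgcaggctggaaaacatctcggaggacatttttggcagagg
Mrpl36: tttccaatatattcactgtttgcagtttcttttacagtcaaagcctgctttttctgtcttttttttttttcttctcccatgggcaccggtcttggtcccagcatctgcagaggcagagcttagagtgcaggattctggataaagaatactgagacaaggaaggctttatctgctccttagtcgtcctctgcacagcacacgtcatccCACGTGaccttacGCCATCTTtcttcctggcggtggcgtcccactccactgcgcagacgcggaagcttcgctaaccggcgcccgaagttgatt
Mrpl9: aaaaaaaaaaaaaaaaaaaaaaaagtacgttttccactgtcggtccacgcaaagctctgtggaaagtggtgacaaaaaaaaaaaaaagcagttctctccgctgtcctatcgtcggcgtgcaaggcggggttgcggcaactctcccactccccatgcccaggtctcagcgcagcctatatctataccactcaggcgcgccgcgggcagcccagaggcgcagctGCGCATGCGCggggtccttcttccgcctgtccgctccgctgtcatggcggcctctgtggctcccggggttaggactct
Mrps18a: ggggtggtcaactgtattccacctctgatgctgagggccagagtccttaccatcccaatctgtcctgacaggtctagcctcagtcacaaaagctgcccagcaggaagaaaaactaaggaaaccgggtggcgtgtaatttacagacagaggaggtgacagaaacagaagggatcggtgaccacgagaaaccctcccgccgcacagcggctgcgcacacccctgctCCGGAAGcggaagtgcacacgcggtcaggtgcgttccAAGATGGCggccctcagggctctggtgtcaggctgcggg

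In these windows Mrps31 had no match to the 4 motifs, and Mrpl36 had an E-box match 43 bases and a YY1 match 30 bases before the start. The Mrpl9 window held an NRF1 match on both strands, overlapping to give 1 palindrome that begins 28 bases before the start. Mrps18a had an ETS match 26 bases before the start and a YY1 match that begins at base 12 after it. A match is a string of letters and was not tested as a binding site.

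RefSeq promoters were found for 67 of the 76 members, 73 promoters in all, and Mrpl4, Mrpl13, Mrpl15, Mrpl19, Mrpl38, Mrpl54, Mrps28, Mrps34 and Mrps35 had none in the table. The ETS motif was in 25 of the 73 promoters (34.2%), against 8.86% of all 32851 promoters of this length and 21.8% of the 5366 promoters of genes in the members' range of levels. YY1 matches were in 12 member promoters (16.4%), against 2.75% and 5.98%. NRF1 matches were in 8 (11.0%), against 2.71% and 6.37%, and E-box matches in 7 (9.59%), against 7.15% and 11.3%. Several of these 7 promoters belong to 1 gene, Mrpl2. Counted by gene, the E-box was in 5 of 67 members (7.46%), against 8.09% of all genes and 13.3% of genes in that range of levels. By call, and counted by gene, an ETS match was found in 14 of 36 genes that fell, 2 of 6 that rose and 9 of 25 that were not called. The counts in the same order were 7, 1 and 4 for YY1, 4, 1 and 3 for NRF1, and 3, 0 and 2 for the E-box, and differences between these groups were not tested.

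In a split of the members by whether the bacterial ribosome has a counterpart, Mrps18a, Mrps18b and Mrpl55 were left unassigned. Among those with a counterpart, the large subunit had 12 genes that fell, 4 that rose and 12 not called of 28. Mrpl4 codes for a protein that lines the tunnel through which the new chain leaves. It was at 11.28 and 11.29 at day 0 and at 10.40 and 10.40 at day 3. The duplicates almost coincide on each day and the days are far apart, by -0.89 ± 0.06 (SE, limma adjusted p = 5.76e-07). Mrpl36, coding for a small zinc-binding protein, was at 9.81 on both day 0 arrays and at 8.87 and 8.78 at day 3. Its groups did not overlap and the difference was -0.99 ± 0.07 (adjusted p = 1.51e-06, limma).

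The 4 rises of the large subunit all belonged to this class. Mrpl9 was at 9.30 and 9.29 at day 0 and at 9.59 and 9.67 at day 3, a difference of 0.34 ± 0.07 (SE, limma adjusted p = 0.00291). Its probe set has the suffix _s_at, a type that may be shared between transcripts. The brightest Mrpl9 probe set of another type differed by 0.37 and was called higher. Mrpl12, whose protein forms the flexible stalk that meets the translation factors, was at 11.27 and 11.38 and then at 11.53 and 11.64, a difference of 0.26 ± 0.06. Mrpl13 rose from 11.13 and 11.29 to 11.44 and 11.48 (0.25 ± 0.07). Mrpl23, near the mouth of the exit tunnel, rose from 10.97 and 10.95 to 11.18 and 11.21 (0.23 ± 0.06). In each of the 4 the day 3 arrays lay above the day 0 arrays, but for Mrpl13 the nearest arrays of the 2 days (11.29 and 11.44) were no further apart than its day 0 duplicates.

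Mrpl9 and Mrps18a were called with any 1 array left out, and the other 5 rises were not. Without day 3 replicate 2, the differences of Mrpl12 (0.21, limma adjusted p = 0.0987), Mrpl13 (0.23), Mrpl23 (0.22), Mrps21 (0.22) and Mrps36 (0.18) were not called. Of the 40 falls, 33 were called whichever array was left out. Mrpl15, Mrps17, Mrpl50, Mrps33, Mrpl21, Mrps10 and Mrpl41 lost their call without at least 1 array, all with differences that stayed below 0. Without day 3 replicate 1, Mrpl41 was at -0.25 and Mrps10 at -0.24.

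The large subunit proteins without a counterpart in the bacterial ribosome had 12 genes that fell and 6 not called of 18. Their median difference was -0.32, against -0.17 for the 28 with a bacterial counterpart. That difference was not tested, since genes are not replicates. Mrpl57 (-0.53 ± 0.06), Mrpl37 (-0.52 ± 0.07) and Mrpl58 (-0.51 ± 0.06, SE) had the largest falls of this class. Mrpl58, long known as Ict1, is a peptidyl-tRNA hydrolase built into the ribosome and frees chains from stalled ones. Mrpl45, which tethers the large subunit to the inner membrane, fell by 0.44 ± 0.07 on the log2 scale. The smallest differences in the class were those of Mrpl54 (0.06), Mrpl44 (0.03) and Mrpl43 (-0.04), which were not called.

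In the small subunit the class with bacterial counterparts had 10 genes that fell, 1 that rose and 5 not called of 16, with a median of -0.29. Mrps15, an RNA-binding protein gene, was at 11.24 and 11.31 at day 0 and at 10.65 and 10.62 at day 3. Its difference of -0.64 ± 0.06 (SE, limma adjusted p = 9.35e-06) was many times the gap between duplicates. Mrps12, whose protein sits at the decoding centre, was at 10.99 and 11.06 and then at 10.40 and 10.46. It fell by 0.59 ± 0.06 on the log2 scale (limma adjusted p = 2e-05). The only probe set of Mrps12 has the suffix _s_at, a type that may be shared between transcripts. Mrps5 (-0.53), Mrps7 (-0.48) and Mrps11 (-0.44) also fell, while Mrps21 rose from 10.10 and 10.20 to 10.37 and 10.41 (0.24 ± 0.07).

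The small subunit proteins without a bacterial counterpart had 5 genes that fell, 1 that rose and 5 not called of 11, with a median of -0.12. This class goes by symbol and includes Mrps30 (-0.0029) and Mrps36 (0.20), which known structures place outside the small subunit (below). Mrps36 is its only rise, so the median and counts are not those of small subunit proteins alone. Mrps31, first described as the islet autoantigen Imogen 38, was at 11.13 and 11.21 at day 0 and at 10.09 and 10.24 at day 3. The groups did not overlap, and its difference of -1.003 ± 0.07 (SE, limma adjusted p = 1.06e-06) was the largest of the family in the deposited values, just past 2-fold (1 on the log2 scale). This order was not stable. Without day 3 replicate 1, Mrps31 was at -0.93 and Mrpl36 at -1.04, and with probe sets averaged per gene Mrps31 was at -0.81. Median centring put Mrps31, Mrpl36 (-1.12) and Mrpl4 (-1.02) all past 2-fold. Mrps22 (-0.49), Mrps26 (-0.40), Mrps25 (-0.32) and Mrps33 (-0.25) also fell.

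The paralogues Mrps18a, Mrps18b and Mrps18c, which descend from the same bacterial ribosomal protein, went different ways (the first pair unassigned in the split above, Mrps18c in the class with a counterpart), though the differences between them were not tested. Mrps18a was at 10.17 and 10.29 at day 0 and at 10.54 and 10.60 at day 3, all higher at day 3, and rose by 0.34 ± 0.07 (SE, limma adjusted p = 0.00227). Mrps18b was at 11.06 and 11.24 and then at 10.48 and 10.59, all lower at day 3, and its difference was -0.62 ± 0.08 (adjusted p = 6.45e-05, limma). Mrps18c was at 11.85 and 11.87 and then at 11.72 and 11.86, so that its groups overlapped, and the difference of -0.07 ± 0.06 was not called (limma adjusted p = 0.445). Each of the 3 was read from its only probe set. Without day 3 replicate 1 the difference of Mrps18c was 0.0020, still not called, while median centring of the arrays gave -0.20 and a call (limma adjusted p = 0.0183).

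Taken by symbol, the subunits had similar shares of falls and rises. Of 47 large subunit genes 24 fell and 4 rose (51.1% and 8.51%), and of 29 small subunit genes 16 fell and 3 rose (55.2% and 10.3%). The median differences were -0.22 and -0.25, with interquartile ranges of -0.41 to -0.0026 and -0.44 to -0.08 that largely cover each other. The large minus the small subunit median was 0.028, and its sign was not stable. Leaving out day 0 replicate 1 gave -0.019 and leaving out day 3 replicate 2 gave -0.023, whereas the other 2 arrays gave 0.043 (day 0 replicate 2) and 0.063 (day 3 replicate 1). The mean over large subunit genes minus that over small subunit genes was 0.158 and 0.160 on the day 0 arrays and 0.201 and 0.193 on the day 3 arrays. Levels of different probe sets cannot be compared, but the change of this gap can, and it was wider on both day 3 arrays, by 0.038 on average, which is small beside the falls of 0.22 and 0.25 in the subunit means themselves.

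Symbols do not always give the place of a protein in the particle. In known structures the products of Mrps18a and Mrps30 lie in the large subunit, and Mrps36 has been reassigned to a dehydrogenase complex of the citric acid cycle. Mrps30 was at 10.72 and 10.80 at day 0 and at 10.74 and 10.77 at day 3, with overlapping groups and no call (-0.0029 ± 0.06, limma adjusted p = 0.979). Its sign turned under other settings (0.045 after renewed quantile normalization). Mrps36 was at 10.15 on both day 0 arrays and at 10.33 and 10.37 at day 3, and rose by 0.20 ± 0.06 (adjusted p = 0.0256, limma). Placed by structure, 16 of 26 small subunit genes fell and 1, Mrps21, rose, with a median of -0.29, and 24 of 49 large subunit genes fell and 5 rose, with a median of -0.20. The difference between the medians was then 0.087, and its values with arrays left out are not given here. Both sets hold only genes with Mrpl or Mrps symbols, so proteins of the particle under other symbols (below) are not in them.

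Where a gene had several probe sets, these mostly gave the same direction. The 42 members with more than 1 probe set had 80 further ones, and 66 of these had the sign of the probe set kept. Of the 58 lying above the median of all probe sets, 50 had that sign, 24 were called lower, 1 was called higher and 33 were not called. The share called among all probe sets is not given here. No further probe set was called opposite to the kept one. Probe sets of Mrpl49 (-0.36), Mrps14 (-0.55) and Mrps23 (-0.36) were called lower although the brighter ones kept for these genes were not called (limma, adjusted over all 45101 probe sets). Mrps21 had a second, dim probe set of mean level 5.16 with a difference of -0.17 that was not called, and averaging its 2 probe sets gave a difference of 0.037.

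Mrpl15, a large subunit gene with a bacterial counterpart, showed how far the size can depend on the probe set. All 8 of its probe sets were called lower. The brightest, with a mean level of 12.44, differed by -0.20, and the next 3, at 12.17, 11.83 and 11.50, by -0.29, -0.45 and -0.36. One at 9.50 differed by -1.27 and the dimmest, at 5.35, by -1.23. The family's values above used the brightest, so for Mrpl15 they are the smallest of the 8. The probe sets at 12.44, 12.17 and 9.50 carry the suffix _x_at, a type that may be shared between transcripts. The brightest without that suffix, at 11.83, differed by -0.45.

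**Figure D3:**
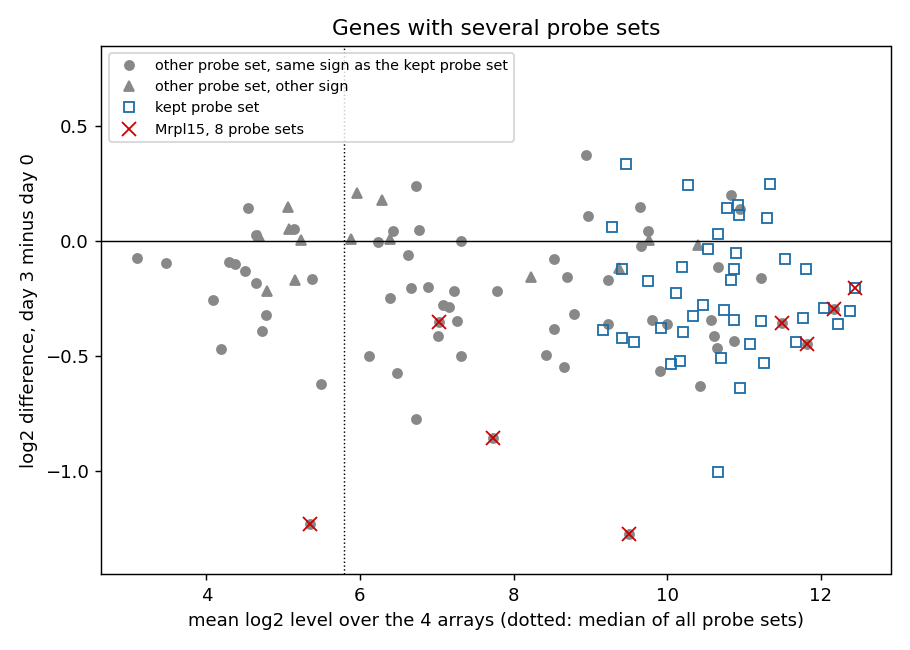
Log2 difference against mean log2 level for the probe sets of the 42 genes with more than 1. Squares are the probe sets kept, grey marks the others, and crosses the 8 probe sets of Mrpl15, which span -1.27 to -0.20. Most grey marks lie below 0 on both sides of the dotted median level.

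Genes that work with the mitochondrial ribosome were read from lists of known members. Of the particle's proteins that carry other symbols, 4 were measured. Ptcd3, an RNA-binding protein of the small subunit, was at 11.87 and 11.89 at day 0 and at 11.13 and 11.21 at day 3 (-0.71 ± 0.06, SE, limma adjusted p = 2.81e-06). Gadd45gip1 (-0.54) and the GTP-binding protein gene Dap3 (-0.42) also fell, and Chchd1 (0.12) was not called.

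Of 26 genes for assembly of the particle and modification of its RNA, 13 fell, 2 rose and 11 were not called, with a median of -0.20. Nsun4, whose product methylates ribosomal RNA, had the largest fall (-0.70), and Grsf1, of the mitochondrial RNA granules, the largest rise (0.47). Of 14 translation factors, 7 fell, 1 rose and 6 were not called, with a median of -0.16. The elongation factor gene Tufm had the largest fall (-0.60), and Guf1, a dim gene, the rise (0.45, limma adjusted p = 0.0463). Among 16 mitochondrial aminoacyl-tRNA synthetases, which charge tRNAs for this ribosome, 9 fell, 1 rose and 6 were not called, with a median of -0.28. Mars2, the methionyl-tRNA synthetase gene, fell from 6.54 and 6.52 to 5.09 and 5.16 (-1.41), and Iars2 rose by 0.37. In all 3 lists the share called lower, 50% to 56.2%, was close to that of the ribosomal proteins (52.6%). In the same fit it was 21.4% among all genes and 33.7% among those above the median level. Called higher were 6.25% to 7.69% of the 3 lists, against 20.9% and 29.0%.

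Genes for mitochondrial DNA went both ways. Of 12, 5 fell (41.7%), 3 rose (25%) and 4 were not called, with a median of -0.06. These shares were near the 33.7% lower and 29.0% higher of genes above the median level in the fit over all genes. Polrmt, the RNA polymerase that makes the mitochondrial ribosomal RNAs, fell from 10.10 and 10.02 to 9.17 and 9.23 (-0.87, limma adjusted p = 3.1e-06). Polg, the DNA polymerase, rose by 0.45, and Tfam, which packs and transcribes the genome, had a difference of 0.15 and was not called (adjusted p = 0.0609, limma).

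Of 12 regulators linked to mitochondrial biogenesis, 5 fell (41.7%), 2 rose (16.7%) and 5 were not called. Among all genes 21.4% were lower and 20.9% higher, and above the median level 33.7% and 29.0%. Myc had the largest fall, from 10.83 and 10.50 to 9.17 and 9.13 (-1.51, limma adjusted p = 5.5e-07), and Mycn, its relative, rose from 11.41 and 11.19 to 11.78 and 11.76 (0.47). Nrf1 (-0.66), Gabpa (-0.52), coding for the DNA-binding part of GABP, and the co-activator gene Pprc1 (-0.61) also fell, while Yy1 (-0.08) was not called. These messages moved on the same arrays as the ribosomal protein genes, and their part in that change was not tested.

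**Figure D4:**
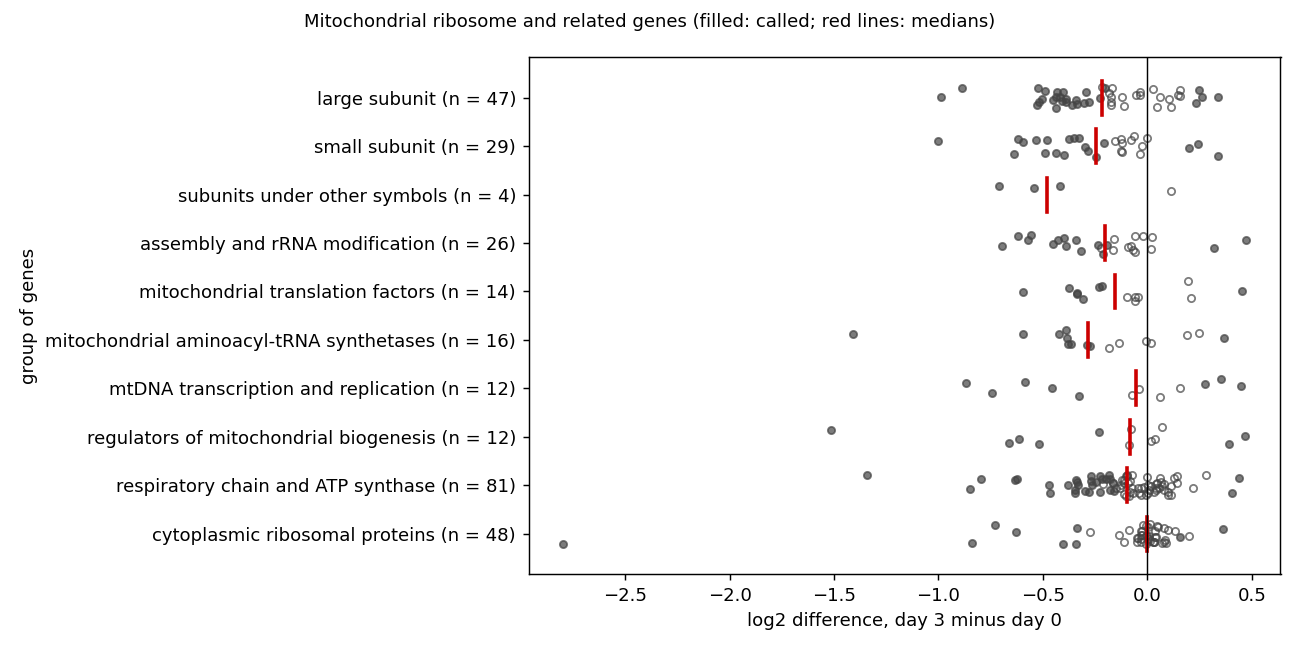
Log2 difference between day 3 and day 0 for each gene of the mitochondrial ribosome, of the related lists, of the respiratory chain with ATP synthase and of the cytoplasmic ribosome, with filled points for called genes and red lines for medians. Medians of the subunits are -0.22 and -0.25, against -0.10 for the respiratory chain and -0.0036 for the cytoplasmic ribosome.

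The respiratory chain and ATP synthase are the complexes that take in the products of this ribosome. Their nuclear genes had 28 of 81 lower (34.6%), 2 higher (2.47%) and 51 not called, with a median difference of -0.10. The share lower was near that of genes above the median level in the same fit (33.7%), and the share higher was under theirs (29.0%). Of 48 cytoplasmic ribosomal protein genes, 7 were lower (14.6%), 2 higher (4.17%) and 39 not called, with a median of -0.0036. The cytoplasmic set lay at a median level of 14.21, near the top of the arrays' range, where differences can be compressed, so its values are not directly comparable with those of the mitochondrial set (median level 10.75).

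Marker genes followed the labels of the arrays, with 8 of 8 naive pluripotency genes lower and 6 of 6 epiblast genes higher at day 3. Genes of visceral endoderm, an extra-embryonic tissue, also rose, 8 of 8. Their summed level on the linear scale went from 849 and 857 at day 0 to 15620 and 17772 at day 3. The lowest log2 value of the list was 4.28 (Apob at day 0), which is not separated from background without detection calls. Of 6 fibroblast genes 3 were higher and 1 was lower, with Col1a1 and Col3a1 under 5 on every array, and the list's median difference was 0.28. Thy1 (1.82), Dcn (0.96) and Col1a2 (0.49) rose, and Vim, an intermediate filament protein, fell by 3.42 from a high level (12.65 and 12.44 to 9.10 and 9.13). The list's summed linear level, 6631 and 5773 at day 0 and 1033 and 1051 at day 3, is mostly that of Vim. The part of other cell types in the fall of the ribosomal protein genes was not tested. With bulk samples, fewer cells of a type and less RNA per cell cannot be told apart. The difference between the ends of the Gapdh message, a measure of RNA integrity, was 0.36 to 0.68 at day 0 and 0.50 to 0.54 at day 3.

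The choice of scaling changes the values above. With 1 probe set per gene, the arrays' median level over the 18194 genes was 6.92 and 6.93 at day 0 and 7.05 and 7.06 at day 3, a shift of 0.13. Over all probe sets the median hardly moved, from 5.78 and 5.79 at day 0 to 5.79 and 5.79 at day 3. The median of the differences per gene was 0.01, so centring on the gene medians takes away more than the typical gene differed. If this shift was removed by centring, the members' median difference became -0.36, with 56 lower and 2 higher, Mrpl9 and Mrps18a. After renewed quantile normalization the median was -0.19, with 38 lower and 10 higher. Centring moves the difference of every gene down alike. The shares of all genes called after centring or renewed normalization are not given here, so these counts have no background beside them.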

How the data were processed

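Biotin-labelled RNA of 4 samples, 2 per day, was read on Affymetrix arrays. The authors deposited log2 values per probe set, made with RMA in R 2.13.0 per the submitters' processing notes. RMA corrects background, equalises the arrays' distributions and summarises probes, so a change in total RNA per cell is not visible. The sources used here give no further settings. Samples were grouped by the day in their titles.

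Of 45101 probe sets, 34958 had 1 gene symbol in the platform annotation, 932 several and 9211 none. All 76 members matched a RefSeq gene, and 0 symbols had changed. Days were compared in R 4.3.3 with limma 3.58.1 (lmFit, eBayes with intensity trend, no covariate, two-sided, Benjamini-Hochberg over 18194 genes, called at 0.05), and the script was tested on simulated data. The number of arrays limits the precision, with 2 residual degrees of freedom per gene and about 8.02 from the shared variance. Lists are described by counts and medians, with no test over the list. No detection call was used.

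Named with array values were the 6 largest called rises and falls, the largest in each subunit, members with opposed probe sets (none), Mrpl12, Mrps12, the Mrps18 paralogues, Mrps30 and Mrps36. Of each related list the largest called rise and fall were also named, several of them by their difference only. Other genes were named after their values were seen. Of 91 related genes listed, 86 were measured, and 2 of these, Mrpl57 and Mrpl58 under older symbols, were already members. The members and lists were chosen with earlier results of these data known. The alternatives were no intensity trend, an unmoderated test, renewed quantile normalization, median centring, genes above the median level, averaged probe sets per gene, no probe sets shared between transcripts, a replicate block, each array left out, an adjusted p under 0.01, every probe set tested, and subunits by structure.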

Additional observations from a re-analysis of the deposited data

How the results depend on the processing

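The median difference of the members stayed below 0 in every alternative that changes the differences, and no called member was called the other way. The fits without the intensity trend, without moderation, among genes above the median level and with a replicate block change only the test. Their median therefore could not differ from -0.22. The count of rises was the less stable value. It was 2 without the intensity trend, 2 after median centring, 4 at an adjusted p under 0.01, 2 to 8 with each array left out and 10 after renewed quantile normalization (with 38 lower and a median of -0.19), against 7. The unmoderated test called 0 higher and 14 lower after adjustment, and 6 and 37 at an unadjusted p under 0.05. Testing every probe set called 67 of 156 member probe sets lower. Shares of all genes or probe sets called are given only for the main fit and the test among genes above the median level. Counts in the other alternatives therefore have no background beside them and show only how calls moved from the main fit. Median centring moved the median difference to -0.36, and leaving out each array gave -0.27 to -0.21, with 34 to 42 members lower. The gap between the subunit medians (0.028) was 0.053 with probe sets averaged per gene, 0.087 by structure and -0.023 to 0.063 with each array left out. With each array left out Mrps18c ranged from -0.13 to 0.0020 and Mrps30 from -0.039 to 0.033 (0.011 without day 3 replicate 1), and Mrps30 was at 0.045 after quantile normalization, none of these being called. With the replicate number as a block, 7 members were higher and 41 lower, and no call was lost. The numbers share no stated culture, and deviations of same-numbered arrays correlated at -0.0167 over genes. Leaving out probe sets shared between transcripts left 73 members. Without detection calls, dim probe sets are not separated from background.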
